A study of Eptatretus atami with 13 samples.

Results

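A group of 97 gene models of the brown hagfish *Eptatretus atami*, of 37562 in the count table, had messenger RNA that was high in both the heart and the tongue muscle and low in most other organs. They were chosen by their levels in FPKM, the count per kilobase of exon sequence scaled to the total of assigned reads in the library. The lower of the heart and tongue muscle levels had to reach 10 FPKM and to be at least 3 times the highest level among 9 other organs, namely brain, skin, liver, kidney, intestine, gall bladder, ovary, blood cells and adipose tissue. Slime gland and gills were left out of the comparison, so the rule did not set their levels. They are not fully independent of the choice, which was made with earlier results of these data known. The rule also kept the 9 other organs low, which bears on every ratio to those organs. Of the 2718 models with at least 10 FPKM in both heart and tongue muscle, 100 met the fold requirement, which is 0.520% of the 19238 models that reached 1 FPKM in any organ, and 3 of these were among 4 models left out by name.

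Heart and tongue muscle are striated muscles. In all vertebrates such muscle shortens through sarcomeres, in which myosin thick filaments pull on actin thin filaments anchored at Z-discs, while titin spans the sarcomere as a spring and calcium release switches contraction on. In hagfishes the tongue muscle draws a toothed plate in and out of the mouth, the slime glands lie in muscular capsules that expel their contents, and the gill pouches have muscle in their walls.

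RNA from 13 organs was sequenced in 1 library per organ, so no difference between organs has a replicate check and no p-value is given. All libraries were labelled wild type with the treatment given as normal embryonic development and the cell type as the whole organism. The heart library was labelled Heart3 and the tongue library as skeletal muscle, and the labels do not say which of the hagfish hearts, or how many animals, were sampled. Assigned read ends ranged from 18800367 in the gills to 39077785 in tongue muscle, with 25801287 in the heart and 28937783 in the slime gland, and the 10 highest models took 48.9% of the tongue muscle, 33.6% of the slime gland, 18.5% of the heart and 4.84% of the gill counts. The adipose library had a summed level of 15 neural marker models of 1230 FPKM, next to 1210 FPKM in the brain, and the 97 models were the same when it was left out of the 9 organs.

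Together the 97 models held 8.12% of all assigned counts in the heart and 13.3% in tongue muscle. Their share was 7.06% in the slime gland and 1.48% in the gills, and between 0.0121% (liver) and 0.185% (gall bladder) in the other 9 organs. The median level was 122 FPKM in the heart and 78.7 FPKM in tongue muscle, the organs by which the models were chosen. In the organs that took no part in the rule it was 53.0 FPKM in the slime gland and 14.2 FPKM in the gills. In a bulk organ sample, fewer muscle cells and less RNA per cell cannot be told apart.

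**Figure D1:**
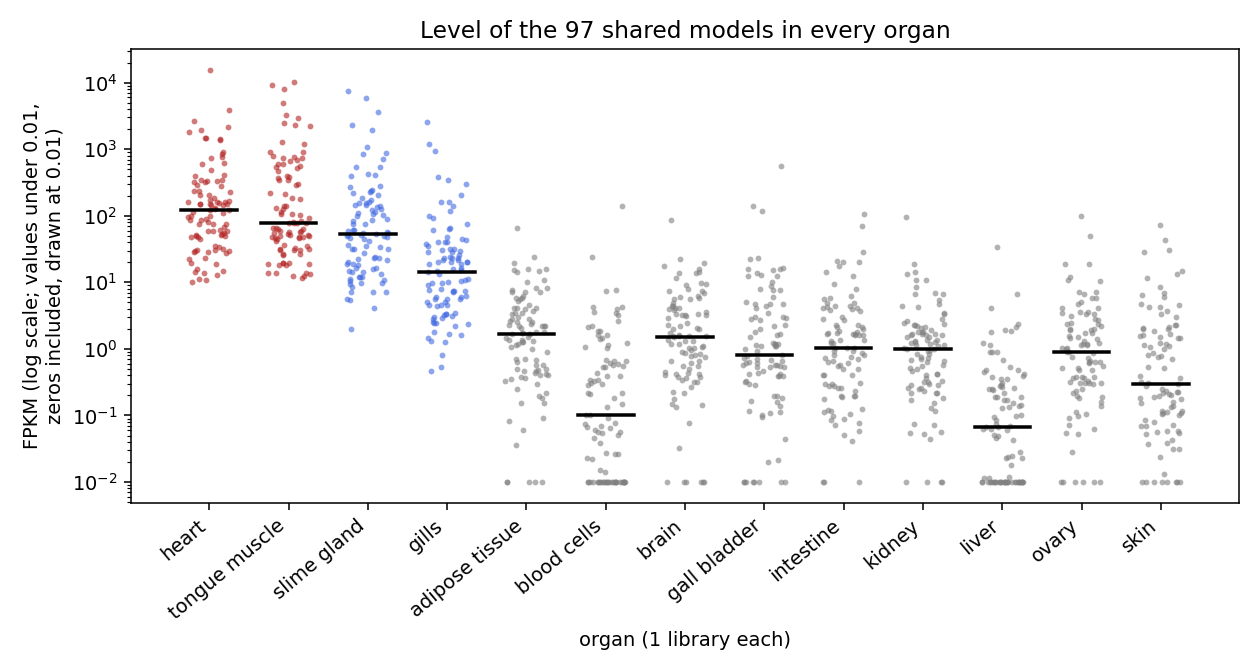
Level of each of the 97 models in FPKM, on a log scale, in the 13 organs, with 1 point per model and a black line at the median. The heart and tongue muscle (red) chose the models; the slime gland and gill levels (blue, medians 53.0 and 14.2 FPKM) lie above the medians of the 9 other organs (grey).

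The rule left wide room above its thresholds. The lower of the heart and tongue muscle levels was between 3.07 and 485 times the highest of the 9 other organs, with a median of 13.5 times. That highest level had a median of 4.26 FPKM, was under 10 FPKM for 73 models and reached 100 FPKM for 3, each time in the gall bladder. Brain was the highest of the 9 organs for 21 models, gall bladder for 19 and intestine for 15, and the remaining organs for 3 to 12 each. In liver 29 and in blood cells 27 of the models had no count at all. Just inside the fold requirement stood EA67050 at 3.07 times, EA70108 at 3.19 times and EA65830 at 3.22 times, and just outside it EA64794 at 2.98 times, EA28815 at 2.81 times and EA33607 at 2.64 times. The lowest levels inside were 10.2 FPKM for EA11716, 10.8 FPKM for EA41946 and 11.3 FPKM for EA25205, and the highest levels outside were 9.46 FPKM for EA19881, 9.10 FPKM for EA11432 and 6.47 FPKM for EA27206.

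A gene symbol, a protein domain or a named gene family was annotated for 10 of the 97 models. The other 87 are known here only by their model numbers, and no role is given to them. A scaling other than the library total multiplies every ratio between a pair of organs by the same number, so that each ratio of heart to tongue muscle below becomes 0.320 times as large with TMM factors, which align the bulk of the models, and 0.289 times with DESeq2 size factors. Titin was represented by TTN-5 (EA39713, chromosome 1, ScMYAQb_1770:98569131-98951420, minus strand), the longest model of the group with 82634 bp of exon sequence in 223 merged exons. Its level was 30.4 FPKM in the heart, 58.0 FPKM in tongue muscle, 50.2 FPKM in the slime gland and 5.56 FPKM in the gills, and no more than 0.260 FPKM in any of the 9 other organs. The slime gland level lay between those of the muscles, at 86.6% of tongue muscle and 1.65 times heart (95% interval 1.63 to 1.68). Intervals of this kind are exact binomial (Clopper-Pearson) intervals on read pairs and cover counting error only. TTN-5 shares 4.46% of its exon length with TTN-2 (EA35921) on the same strand, whose own levels of 2.38 FPKM in the heart and 5.73 FPKM in tongue muscle kept it below the rule. Read ends that fell on both models were not assigned to either, so both levels are slightly understated.

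EA26574 (chromosome 5, ScMYAQb_9854:139308566-139384383) carries immunoglobulin I-set and fibronectin type III domains together with the tri-helix bundle domain that is known from myosin-binding protein C, a thick filament protein. Its levels were 96.8 FPKM in the heart, 11.7 FPKM in tongue muscle, 890.3 FPKM in the slime gland and 1.79 FPKM in the gills. Slime gland was thus the highest of all 13 organs for this model, 9.20 times the heart (95% interval 8.96 to 9.44), while the gills were below the brain at 2.43 FPKM. It had the highest slime gland level relative to tongue muscle of any member.

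A pair of models belongs to the gene family of LDB3, PDLIM5 and PDLIM7, whose PDZ and LIM domain proteins bind the Z-disc in other vertebrates. EA31354 (chromosome 7) had 904 FPKM in the heart, 758 FPKM in tongue muscle, 172 FPKM in the slime gland and 23.1 FPKM in the gills. EA01733 (chromosome 6) had 737 FPKM in the heart, 1283 FPKM in tongue muscle, 536 FPKM in the slime gland and 60.6 FPKM in the gills. Both were low in the 9 other organs, at no more than 7.33 and 16.6 FPKM, but the slime gland reached 22.7% of tongue muscle for EA31354 and 41.8% for EA01733. A relative in the same family, EA77800 (chromosome 3), was not a member. It had 154 FPKM in the heart, 29.2 FPKM in tongue muscle, 81.6 FPKM in the slime gland and 108 FPKM in the gills, and up to 97.9 FPKM in the gall bladder among the other organs. EA10390, a model of 1 exon on chromosome 10, belongs to the family of ABRA, an actin-binding protein of muscle, and had 228 FPKM in the heart, 187 FPKM in tongue muscle, 31.3 FPKM in the slime gland and 21.9 FPKM in the gills.

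DUSP27 (EA38465, chromosome 1) encodes a phosphatase-like protein that muscle fibres of zebrafish need for ordered sarcomeres. It had 89.3 FPKM in the heart, 27.1 FPKM in tongue muscle, 31.2 FPKM in the slime gland and 10.7 FPKM in the gills. As scaled by totals its slime gland level was 115% of that of tongue muscle. SGCE-2 (EA37166, chromosome 1) encodes a sarcoglycan, part of the complex that ties the muscle cell membrane to dystrophin. It had similar levels in the muscles as scaled here, with 122 FPKM in the heart and 130 FPKM in tongue muscle, a ratio of 0.941 (95% interval 0.897 to 0.988), and it had 74.9 FPKM in the slime gland and 9.85 FPKM in the gills. PTGES3L (EA36819, chromosome 1), which carries the CS domain found in the co-chaperone p23, had 233 FPKM in the heart, 59.9 FPKM in tongue muscle, 46.4 FPKM in the slime gland and 18.9 FPKM in the gills.

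The subunits of the ATP-sensitive potassium channel, which links membrane excitability to energy state in muscle, were found side by side. KCNJ11-1 (EA21988, ScMYAQb_1156:6646684-6653516), the pore subunit, lies 22103 bp from ABCC9-3 (EA24217, ScMYAQb_1156:6675620-6913020), the regulatory sulphonylurea receptor subunit, on the same strand of chromosome 1. KCNJ11-1 had 55.6 FPKM in the heart, 31.8 FPKM in tongue muscle, 16.5 FPKM in the slime gland and 4.54 FPKM in the gills. ABCC9-3 had 15.6 FPKM in the heart, 48.8 FPKM in tongue muscle, 7.26 FPKM in the slime gland and 1.70 FPKM in the gills. As scaled here the pore subunit was 1.75 times higher in the heart and the regulatory subunit 3.13 times higher in tongue muscle. With TMM and DESeq2 factors the pore subunit was higher in tongue muscle as well, by 1.79 and 1.98 times, and the regulatory subunit by 9.78 and 10.8 times. Outside muscle, KCNJ11-1 was above its gill level in the kidney (8.64 FPKM), brain (7.30), adipose tissue (7.13), ovary (5.89) and intestine (5.58). It had 4.52 FPKM or less in the rest of the 9 organs. ABCC9-3 did not exceed 1.54 FPKM in the 9 other organs. A further model, ABCC9-2 (EA23460), had 4.77 FPKM in the heart, 35.1 FPKM in tongue muscle, 8.05 FPKM in the slime gland and 1.26 FPKM in the gills and did not meet the rule. It lies close to ABCC9-3 on the same strand (ScMYAQb_1156:6916184-7071365). Whether these ABCC9 models are parts of 1 gene was not tested.

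**Figure D2:**
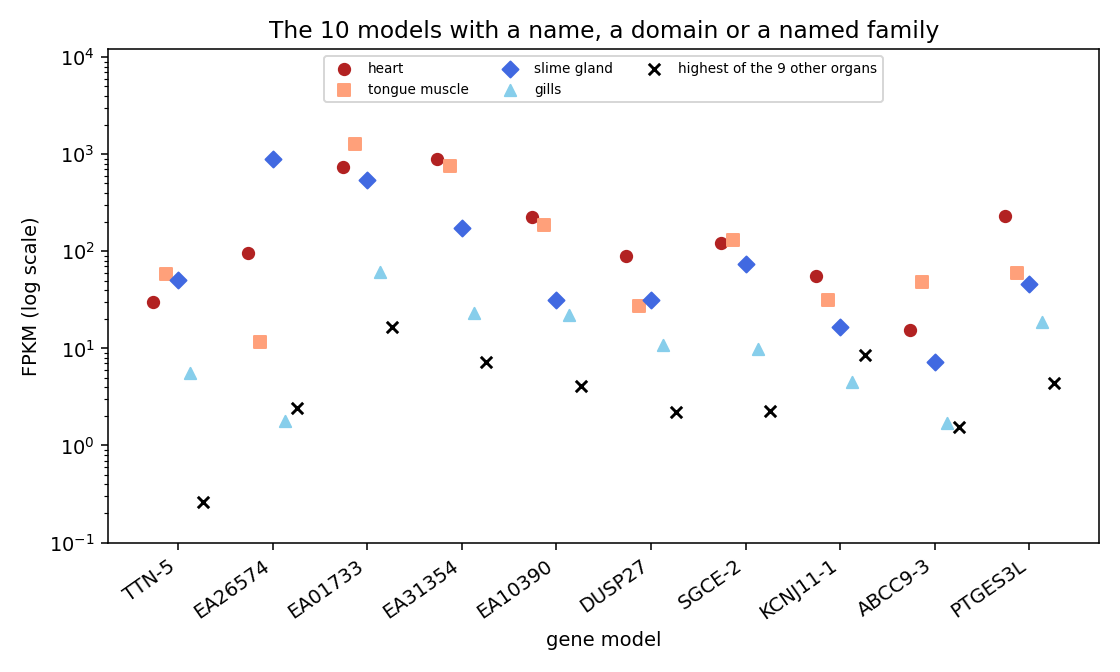
Levels in FPKM, on a log scale, of the 10 models with a name, a domain or a named family in heart, tongue muscle, slime gland, gills and the highest of the 9 other organs. Slime gland lies above that highest level for all 10, from 16.5 against 8.64 FPKM (KCNJ11-1) to 890.3 against 2.43 FPKM (EA26574), and gills lie below it for EA26574 and KCNJ11-1.

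Most muscle genes with a symbol did not belong to the shared group. Gene symbols were at hand for models of chromosome 1 in the main, which holds 6 of the members, so the following counts cover that chromosome alone. Of 17 models for sarcomere and filament genes, 2 were members (TTN-5 and DUSP27), 4 further models met the same thresholds in the heart with at least 3 times the tongue muscle level and 1 did so in tongue muscle. That 1 was MYL2-1, a regulatory light chain of myosin, with 1.35 FPKM in the heart, 28576 FPKM in tongue muscle, 1.40 FPKM in the slime gland and 1408 FPKM in the gills. The heart models included NEB-4, one of several nebulin models (nebulin lines the thin filament), with 1160 FPKM in the heart, 0.276 FPKM in tongue muscle, 774 FPKM in the slime gland and 113 FPKM in the gills. NEBL, annotated with the symbol of the nebulin relative nebulette, had 311 FPKM in the heart, 0.0340 FPKM in tongue muscle, 384 FPKM in the slime gland and 48.3 FPKM in the gills. The 4 heart models, NEB-1, NEB-2, NEBL and NEB-4, all lie within ScMYAQb_1770:61938678-62263884. Whether they are parts of 1 gene was not tested. Of 19 models for excitation, calcium and membrane genes 3 were members (KCNJ11-1, ABCC9-3 and SGCE-2), and 2 further models met the thresholds in tongue muscle alone. The members are 0.258% of all models, so an absence from a short list shows little. None of 8 models for glycogen and glucose use, 19 for mitochondrial energy and 6 for myogenic transcription was a member. Of the mitochondrial models, 12 had at least 10 FPKM in both heart and tongue muscle. These mitochondrial genes were also high in the other organs, such as citrate synthase (CS, EA24082) with 461 FPKM in the heart, 154 FPKM in tongue muscle and 582 FPKM in the kidney.

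None of the 6 blood cell, 13 connective tissue, 13 epithelial and 15 neural marker models was among the 97 models. The members are 0.258% of all models, so lists this short would seldom hold one and their absence shows little. The 6 blood cell marker models summed to 45.1 FPKM in the heart, 8.59 FPKM in tongue muscle, 27.3 FPKM in the slime gland and 329 FPKM in the gills. The blood cell library itself summed to 186 FPKM, mostly from LYL1-1 with 171 FPKM there and 36.9 FPKM in the gills. The gill sum rested mostly on GATA2-2, with 193 FPKM in the gills and 8.77 FPKM in blood cells, so it is not a measure of blood. The 13 connective tissue models summed to 363 FPKM in the heart, 43.6 FPKM in tongue muscle, 182 FPKM in the slime gland and 230 FPKM in the gills. The 13 epithelial models summed to 12.9 FPKM in the heart, 1.64 FPKM in tongue muscle, 3155 FPKM in the slime gland and 679 FPKM in the gills, and 7 of them had no count in the heart and 9 none in tongue muscle. In the slime gland and in the gills 6 of the 13 also had no count, and the slime gland sum rested mostly on PPL-1 with 2269 FPKM and KRT8-5 with 731 FPKM. The neural markers summed to 94.4 FPKM in the heart, 40.9 FPKM in tongue muscle, 139 FPKM in the slime gland and 240 FPKM in the gills. The tongue muscle sum rested mostly on SYNPR-2, with 40.2 FPKM there, 22.8 FPKM in the brain and 129 FPKM in the kidney. The gill sum rested mostly on RAB3A-2 with 124 FPKM and SYNPR-2 with 88.3 FPKM. RAB3A-2 had 44.5 FPKM in the brain and 109 FPKM in the intestine, so these sums are not a measure of nerve. The part of cell composition in the levels of the 97 models was not tested.

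Every one of the 97 models was higher in the slime gland than in each of the 9 other organs, and 83 (85.6%) were at least 3 times higher than the highest of them. Among all 19238 models that reached 1 FPKM in any organ, 413 (2.15%) were so, and among the 2718 with at least 10 FPKM in both heart and tongue muscle 96 (3.53%) were, 83 of which are the members. The rule had kept the levels in the 9 organs low, and this background did not. Models chosen the same way in 1 muscle alone give a nearer setting. Of models at 10 FPKM or more in 1 muscle and at least 3 times both the other muscle and the 9 organs, 166 were found for the heart and 121 for tongue muscle, and 17 and 15 of these were members and were set aside. Slime gland reached 3 times the highest of the 9 organs for 32 of the 149 heart models that remained (21.5%) and for 51 of the 106 tongue muscle models (48.1%). It was above that highest level by any margin for 48 of the 149 heart models and 80 of the 106 tongue muscle models.

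The 14 members under 3 times were mostly those with a sizeable level elsewhere. EA65267 had 208 FPKM in the slime gland, against 139 FPKM in the gall bladder, and EA04344 had 55.2 FPKM in the slime gland, against 49.5 FPKM in the ovary. EA82325, EA82388, EA54081 and EA13765 were low in the slime gland itself, at 1.97 to 7.13 FPKM.

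In the gills fewer members stood out. The gill level was above the highest of the 9 other organs for 80 models and below it for 17, and at least 3 times higher for 49 (50.5%), against 2.85% of the 19238 models and 1.99% of the 2718. For the models of 1 muscle, members set aside, the counts at 3 times were 19 of 149 (12.8%) for the heart and 33 of 106 (31.1%) for tongue muscle. The gill level was above the highest of the 9 organs by any margin for 48 of the 149 and 48 of the 106. Slime gland exceeded gills for 93 of 97 members, and the gill level had a median of 20.2% of the slime gland level (quartiles 13.3% and 38.8%). Over the 2718 models the order was the other way round as scaled by totals, with a median gill level of 199% of slime gland. That contrast rests on the scaling. By totals their median log2 ratio to tongue muscle was 1.20 for gills and 0.27 for slime gland. With TMM factors it was −1.10 and −0.76, and with DESeq2 size factors −1.24 and −0.86, so gills were then the lower. The order of the members was not theirs alone. Of the models of 1 muscle, slime gland exceeded gills for 84 of 106 in tongue muscle and 62 of 149 in the heart. Where the slime gland had a count, their median gill levels were 25.3% and 138% of slime gland. These values for the models of 1 muscle are by totals and were not computed with other factors.

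Set against the muscles, the slime gland level of the members had a median of 45.3% of heart (quartiles 23.8% and 118%) and 46.1% of tongue muscle (quartiles 29.8% and 79.7%). With TMM factors the same 97 models gave 68.7% of heart and 22.3% of tongue muscle, and with DESeq2 size factors 70.9% and 20.8%. As scaled by totals it was above heart for 26 models, above tongue muscle for 20 (32 and 7 with TMM factors), below both for 58 and above both for 7 of 97, where 7.40% of the 2718 models were above both. The gill level had a median of 10.8% of heart and 10.2% of tongue muscle (quartiles 4.72% and 24.0%), or 6.54% and 1.98% with TMM factors, and was above both for none of the 97, where 54.1% of the 2718 models were. For comparison, over the 2718 models the median slime gland level was 121% and the median gill level 237% of tongue muscle as scaled by totals. With TMM factors both medians fell below tongue muscle, at log2 ratios of −0.76 for slime gland and −1.10 for gills. With DESeq2 size factors they were −0.86 and −1.24. The shares of the 2718 models above both muscles are by totals as well. Across the 97 models the log2 levels of slime gland correlated at r = 0.739 with heart and r = 0.744 with tongue muscle. Gill levels correlated at r = 0.815 with slime gland, r = 0.832 with tongue muscle and r = 0.709 with heart. Heart and tongue muscle, which chose the models, correlated at r = 0.631. These correlations are descriptions over 97 models of 4 libraries, the models share each library's total, and neighbouring models are not independent.

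**Figure D3:**
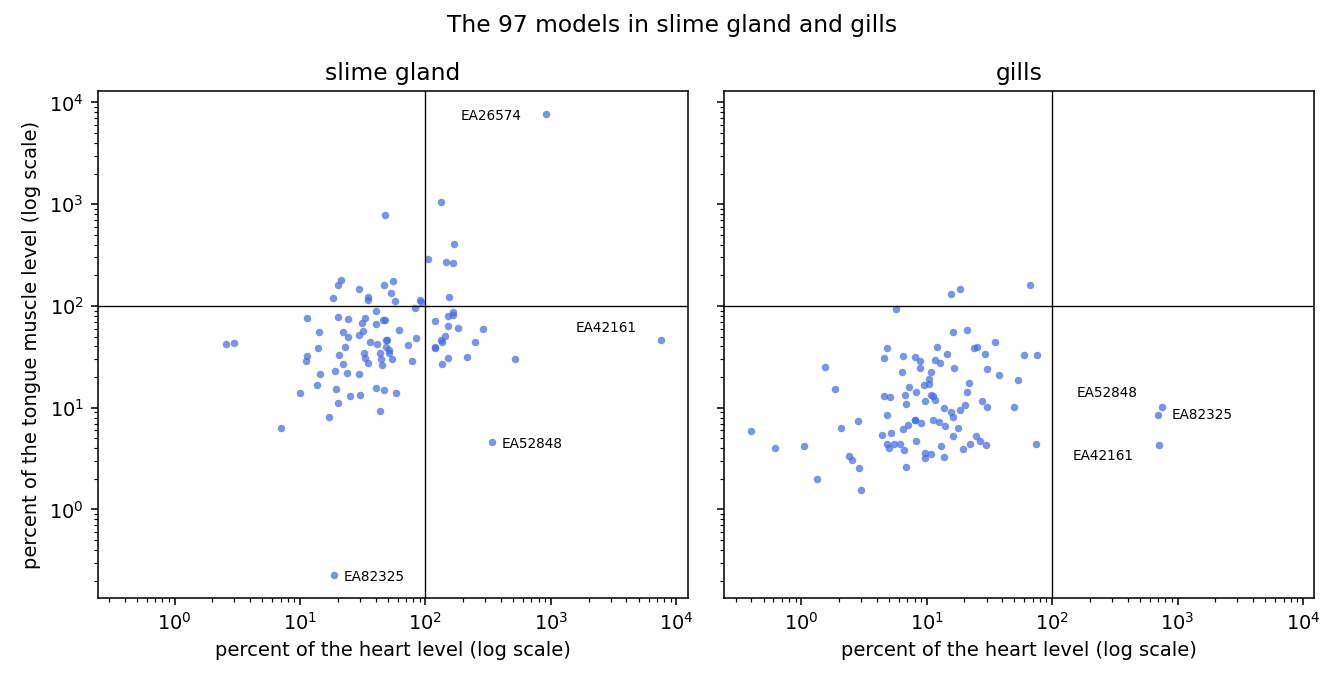
Slime gland (left) and gill (right) level of each of the 97 models as a percentage of its heart level (horizontal axis) and of its tongue muscle level (vertical axis), both on log scales, with lines at 100%. Most points lie below both lines in either organ; 7 models are above both in the slime gland and none in the gills.

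Slime gland was the highest of the 13 organs for 7 models, and for 6 with TMM factors, DESeq2 size factors or totals without the 10 highest models, EA80919 then being higher in tongue muscle. EA26574 was the extreme, as given above. EA80919 (chromosome 17) had 3897 FPKM in the heart, 4917 FPKM in tongue muscle, 5959 FPKM in the slime gland and 1181 FPKM in the gills, with no more than 8.03 FPKM in the 9 other organs. EA05322 (chromosome 16) had 1833 FPKM in the heart, 659 FPKM in tongue muscle, 1911 FPKM in the slime gland and 384 FPKM in the gills. For EA05322 the slime gland exceeded the heart by 1.04 times (95% interval 1.03 to 1.06). EA25695 and EA65830 were lower but showed the same order of slime gland, heart and tongue muscle. EA25695 had 143 FPKM in the heart, 58.9 FPKM in tongue muscle, 241 FPKM in the slime gland and 94.2 FPKM in the gills. EA65830 had 110 FPKM in the heart, 13.7 FPKM in tongue muscle, 145 FPKM in the slime gland and 20.2 FPKM in the gills. The 2 that remain were lower, EA78779 with 52.3 FPKM and EA10051 with 33.7 FPKM in the slime gland, 1.66 and 1.46 times their heart levels. As scaled by totals the heart was above tongue muscle in all 7, except for EA80919.

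At the other end, some members were low in the slime gland against tongue muscle. EA82325 (chromosome 17) had 29.6 FPKM in the heart, 2434 FPKM in tongue muscle, 5.54 FPKM in the slime gland and 208 FPKM in the gills. Its gills thus held more than its slime gland, the reverse of the usual order. EA52848 (chromosome 14) had 123 FPKM in the heart, 9069 FPKM in tongue muscle, 418 FPKM in the slime gland and 927 FPKM in the gills. EA44166 (chromosome 2) had 2633 FPKM in the heart, 2959 FPKM in tongue muscle, 187 FPKM in the slime gland and 75.7 FPKM in the gills, so that the slime gland reached 6.31% of tongue muscle. EA04344 reached 8.07%. The other models with more in the gills than in the slime gland were neighbours on chromosome 17. EA79774 had 10.4 FPKM in the gills and 4.14 FPKM in the slime gland, and EA82388 had 16.3 FPKM in the gills and 5.46 FPKM in the slime gland.

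Ranked by the lower of the muscle levels, which favours models with similar levels in both, the leading members not yet described were as follows. EA62361 (chromosome 4) had 15454 FPKM in the heart, 10249 FPKM in tongue muscle, 7409.6 FPKM in the slime gland and 2541 FPKM in the gills, and also 564 FPKM in the gall bladder. This model alone made up 25.7% of the members' counts in the heart, and it had the highest FPKM of any member in all 4 of these organs. EA17317 had 2181 FPKM in the heart, 2313 FPKM in tongue muscle, 1067 FPKM in the slime gland and 142 FPKM in the gills. EA19281 had 1949 FPKM in the heart, 3308 FPKM in tongue muscle, 2334 FPKM in the slime gland and 303 FPKM in the gills. EA77867 and EA78591, both on chromosome 3, had 1489 and 1458 FPKM in the heart, 1211 and 741 FPKM in tongue muscle, and 533 and 837 FPKM in the slime gland.

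Between the muscles themselves, 28 members were at least 2 times higher in the heart, 24 at least 2 times higher in tongue muscle and 45 within 2 times. The heart was above tongue muscle for 49 models and tongue muscle above the heart for 48. This split rests on the scaling. Of 13287 models with 1 FPKM in either muscle, 77.0% were at least 2 times higher in the heart and 4.61% in tongue muscle. Of the 2718 with 10 FPKM in both, 58.9% were at least 2 times higher in the heart and 4.49% in tongue muscle. With TMM factors 9 of the 97 were at least 2 times higher in the heart and 60 in tongue muscle, with DESeq2 size factors 7 and 64, and with library totals without the 10 highest models 16 and 39. The median log2 ratio of heart to tongue muscle over members was 0.04 as scaled here, −1.58 with TMM factors and −1.73 with DESeq2 size factors, while over the 2718 models it was 1.17, −0.43 and −0.58. The members' median was below that of the 2718 models. A change of scaling moves both medians together, so their order under other scalings adds no support. The rule also used the heart and tongue muscle levels.

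At least 10 times higher were 3 members in the heart and 4 in tongue muscle. EA79401 (chromosome 3) had 851 FPKM in the heart, 50.9 FPKM in tongue muscle, 403 FPKM in the slime gland and 48.1 FPKM in the gills, a heart to tongue muscle ratio of 16.7. EA08091 (chromosome 16) had 328 FPKM in the heart, 19.9 FPKM in tongue muscle, 8.47 FPKM in the slime gland and 5.05 FPKM in the gills. EA00508 (chromosome 6) had 762 FPKM in the heart, 51.8 FPKM in tongue muscle, 22.5 FPKM in the slime gland and 3.03 FPKM in the gills, a ratio of 14.7 (95% interval 13.9 to 15.6). These models differed in the slime gland, which reached 47.3% of the heart for EA79401 but 2.58% for EA08091 and 2.96% for EA00508. EA67050, EA26574 and EA29743 followed with ratios of 8.40, 8.28 and 8.06.

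In the other direction, EA42161 (chromosome 2) had 48.9 FPKM in the heart, 7983 FPKM in tongue muscle, 3679 FPKM in the slime gland and 345 FPKM in the gills. Its tongue muscle level was 163 times that of the heart (95% interval 157 to 170), the widest gap among members, and its slime gland level 75.2 times. EA82325 and EA52848, described above, were 82.3 and 73.7 times higher in tongue muscle. EA01731 had 30.5 FPKM in the heart, 524 FPKM in tongue muscle, 157 FPKM in the slime gland and 22.8 FPKM in the gills. For EA42161, EA52848 and EA82325 the gills also exceeded the heart, and they were the only members for which this was so.

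**Figure D4:**
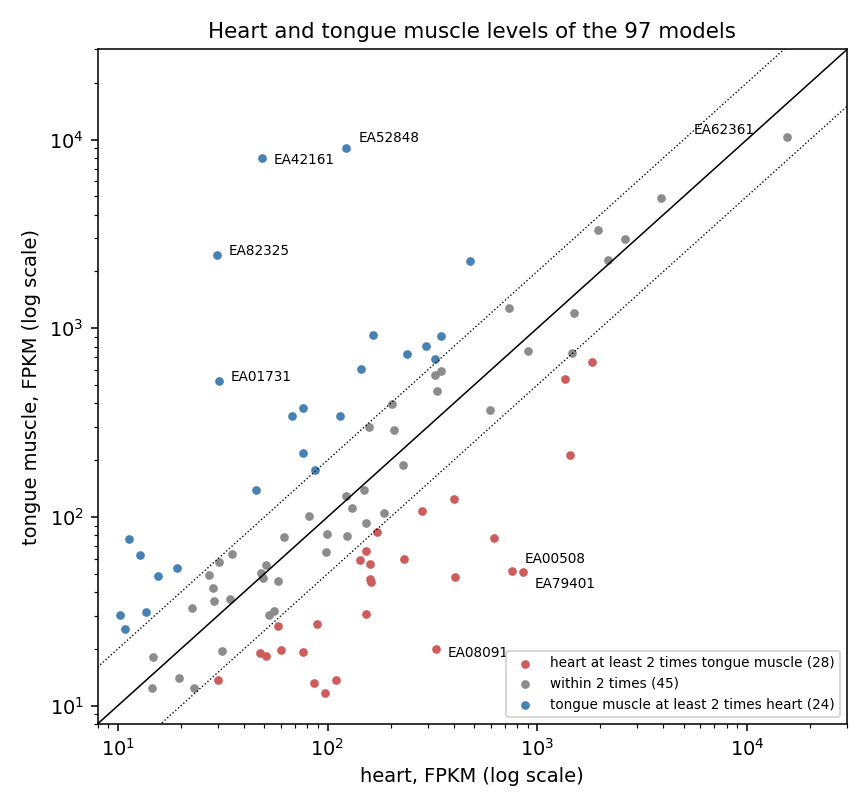
Heart (horizontal axis) and tongue muscle (vertical axis) level of the 97 models in FPKM on log scales, with the line of equality and dotted lines at 2 times in each direction. The 28 models in red are at least 2 times higher in the heart, the 24 in blue at least 2 times higher in tongue muscle, and EA42161 lies farthest from the line.

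How the slime gland stood between the muscles depended on the scaling. For the 28 models higher in the heart the median slime gland level was 26.8% of heart and 102% of tongue muscle, and for the 24 higher in tongue muscle it was 135% of heart and 31.0% of tongue muscle. It was closer, in log ratio, to tongue muscle for 23 of the 28, for 6 of the 24 and for 20 of the 45 in between. Groups chosen by the ratio of the muscles carry part of this by construction. With TMM factors and the same models, the slime gland was closer to tongue muscle for 15 of the 28, 4 of the 24 and 4 of the 45. The gills had medians of 6.87% of heart for the 28 and 4.99% of tongue muscle for the 24.

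The members lay on all 17 chromosomes to which their scaffolds were assigned, most on chromosome 3 (11 models), chromosome 5 (9) and chromosome 17 (8). The number of all models on each chromosome was not set beside these counts, so they show no concentration. They had a median of 8 merged exons and 1835 bp of exon sequence, from 231 bp (EA85111) to 82634 bp (TTN-5), against 8 exons and 1571 bp over all models with at least 10 FPKM in any organ. With neighbours within 100 kb joined, the members formed 84 stretches, of which 12 held 25 of the members. In 10 of the 12 the models were on 1 strand, and in 7 their ratios of heart to tongue muscle were within 1.5 times of each other. No such counts for other neighbouring models were set beside these.

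The closest neighbours were on chromosome 9, where EA46996, EA47216 and EA50136 follow one another on the minus strand with gaps of 30 and 75 bp (ScMYAQb_9902:117965900-117984946). Their levels were 239, 114 and 45.4 FPKM in the heart and 733, 344 and 138 FPKM in tongue muscle, which give ratios of 0.326, 0.331 and 0.328. In the slime gland they were at 38.6%, 39.3% and 44.6% of tongue muscle. EA05143 ends 54 bp before EA01733 on chromosome 6, and the pair had ratios of 0.575 and 0.574. EA34995 lies 29905 bp from EA31354 on chromosome 7, with ratios of 1.22 and 1.19. Whether such neighbours are parts of 1 gene was not tested, and with 1 model per stretch 84 members stood, of which 70 were at least 3 times higher in the slime gland than in the 9 other organs and 44 in the gills.

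Other neighbours parted. EA79401 and EA77003 lie 65849 bp apart on the plus strand of chromosome 3, and their ratios of heart to tongue muscle were 16.7 and 0.179, a difference of 93.6 times. EA77003 had 165 FPKM in the heart, 923 FPKM in tongue muscle, 412 FPKM in the slime gland and 43.6 FPKM in the gills, so the pair had nearly equal levels in the slime gland and in the gills. EA18059 lies inside the span of EA19281 on the opposite strand of chromosome 13, with 158 FPKM in the heart, 301 FPKM in tongue muscle, 240 FPKM in the slime gland and 31.9 FPKM in the gills, and the ratios of the pair were 0.525 and 0.589. The reads were counted without regard to strand, so that reads from a gene and its antisense partner cannot be told apart where their exons overlap; the exons of this pair did not. Exons of 13 members overlapped another model on either strand. Without these 13 models, 72 of 84 were at least 3 times higher in the slime gland and 42 in the gills.

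**Figure D5:**
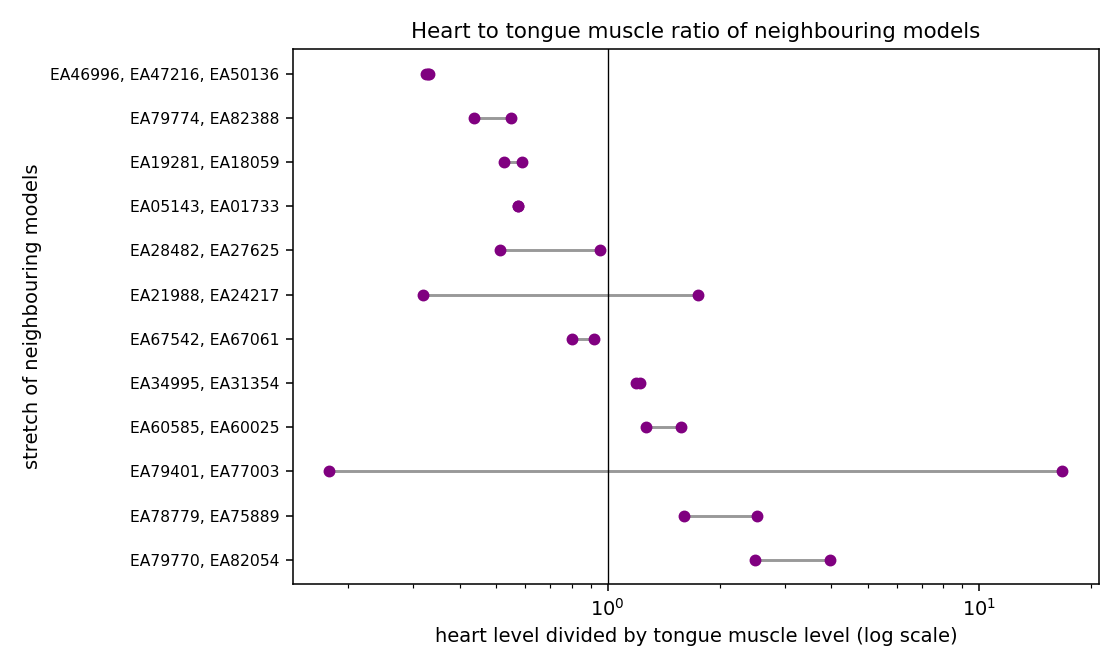
Ratio of heart to tongue muscle level, on a log scale, of the models in the 12 stretches with neighbours within 100 kb, 1 row per stretch and 1 point per model, with a line at 1. The points of EA46996, EA47216 and EA50136 coincide near 0.33, while those of EA79401 and EA77003 lie 93.6 times apart.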

How the data were processed

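RNA of 13 organs was read in strand-specific paired-end libraries, 1 per organ. Per the labels the authors aligned reads with STAR 2.5.2b, and per the file headers featureCounts 1.6.1 counted them per gene model without options for pairs or strand. The deposited values are raw counts of read ends, and 83.6% of counts from 1 to 4 were even, so intervals were computed on count pairs. FPKM were computed here from the deposited counts, the sum of each column and the exon length, with no filter. Log2 ratios used a pseudocount of 1 FPKM.

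Members and gene lists (9 lists, 90 symbols) were chosen with earlier results of these data known. Gene symbols, domains and families came from the study's supplementary annotation, which covers chromosome 1 in the main. Models named in the text were those with a name, domain or family, the 8 highest, the 4 most extreme in each ratio, those next to the thresholds and the neighbours.

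With 1 library per organ no test was possible, and levels, ratios and exact binomial intervals (95%) are given. Alternatives were TMM factors (edgeR 4.0.16), DESeq2 1.42.0 size factors, totals without the 10 highest models, folds of 2 and 5, minimums of 5 and 20 FPKM, at least 20 counts, the 9 organs without adipose tissue, 1 model per stretch, slime gland and gills counted among the others and a pseudocount of 0.1 FPKM. Scripts were tested on simulated data. Tables were handled with pandas 2.3.3 and numpy 2.4.6 under Python 3.11.15, intervals with scipy 1.17.1, figures with matplotlib 3.10.9 and scalings in R 4.3.3.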

Additional observations from a re-analysis of the deposited data

How the results depend on the processing

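The summaries over members were recomputed under 11 or 12 alternatives each, 92 values in all. Of these, 76 stayed within 1.5 times (counts) or within the 95% interval of the median. That interval treats the models as independent, which neighbouring models are not, and it measures no spread between samples. The alternative of at least 20 counts could change nothing, as no member had under 230 counts in heart or tongue muscle. The 76 values are therefore no measure of stability. The counts of members at least 3 times higher in slime gland and in gills than in the 9 other organs stayed within 1.5 times in all 11 alternatives. With members chosen anew, slime gland counts were 116 of 139 (TMM) and 122 of 146 (DESeq2), against 83 of 97. Gill counts were 49 of 139 and 49 of 146, against 49 of 97, so the gill share was lower. With the same 97 models held fixed, either set of factors gave 93 in slime gland and 45 in gills. The number of members was 97, and 96 of the 97 remained with TMM factors and with DESeq2 size factors, when the number became 139 and 146. It fell to 15 when slime gland and gills were counted among the other organs. With TMM factors, DESeq2 size factors and totals without the 10 highest models, and members chosen anew, the count at least 2 times higher in heart was 18, 19 and 18, that at least 2 times higher in tongue muscle 70, 74 and 39, and the median log2 ratios were −1.84, −1.93 and −1.51 for slime gland to tongue muscle, −4.47, −4.54 and −3.84 for gills to tongue muscle and −1.01, −1.08 and −0.39 for heart to tongue muscle. Each scaling multiplies every ratio between a pair of organs by the same number, and the choice of members changed with it. With the same 97 models held fixed, the median log2 ratio of heart to tongue muscle was −1.58 with TMM factors and −1.73 with DESeq2 size factors. Why the scalings differ was not tested. The alternative without members whose exons overlap another model was added after seeing the data. No paired analysis was possible because each organ has 1 library. Gill counts were under 20 for 3 members.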
